A study of Mus musculus with 6 samples.

Results

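A group of 10 genes of muscle protein breakdown was followed in hearts that lack the long non-coding RNA *Trdn-as*: the ubiquitin ligase genes *Fbxo32*, *Trim63*, *Trim54*, *Trim55* and *Fbxo40*, the transcription factor gene *Foxo1*, the co-chaperone gene *Bag3*, and the autophagy genes *Sqstm1*, *Bnip3* and *Gabarapl1*. They were taken from the table by gene symbol, as a set chosen with earlier results of these data known, and all 10 were among the 21776 genes of the deposited table. Of the 10, 0 differed between KO and WT hearts after adjustment over all genes, which 0.0291% of all tested genes did, and the 95% interval of every fold change lay between 0.820 and 1.207. Of the 10, 8 were measured slightly lower in KO and 2 slightly higher.

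The RNA came from whole hearts of 3 homozygous *Trdn-as* KO mice and 3 WT mice, 1 strand-specific total RNA library per heart. The KO allele carries a polyA signal that was inserted with Cas9 into the first exon of *Trdn-as* in ES cells, and the line was crossed back to C57BL/6, so the altered allele is present in every cell of the animal and from development on. The series' design text speaks of a deficiency in cardiomyocytes, the labels used here give no age, and the study did not take sex into account. *Trdn-as* is transcribed from the strand opposite to *Trdn*, which encodes triadin of the calcium release complex.

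Muscle removes proteins by 2 connected routes. In the ubiquitin-proteasome route, a ligase marks a protein with ubiquitin and the proteasome degrades it. In autophagy, a receptor ties the cargo to LC3 or GABARAP proteins on a growing membrane, which then fuses with a lysosome. *Fbxo32* (atrogin-1) and *Trim63* (MuRF1) are the ligase genes best known for rising in muscle wasting, and FoxO factors, which are held in check by insulin and AKT signalling, switch on both of them together with *Bnip3* and *Gabarapl1*. In heart muscle the same machinery turns over sarcomere proteins and mitochondria.

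The upstream promoter sequences of the RefSeq table (assembly GRCm38.p6) were searched for the short motifs of the factors that are known to drive such genes. Of the 10 genes, 8 were matched to 9 start sites, with 2 for *Fbxo40*, and *Fbxo32* and *Trim55* were not matched. The 250 bases before each start were searched on both strands. The FoxO motif GTAAACA was found in 3.17% of all 32851 promoters and, among the 8 genes, in *Trim63* alone. There it lay 194 bases before the start on the reverse strand, so the strand of the gene shows its reverse complement. The hypoxia motif ACGTG was found in 16.6% of all promoters and, among these genes, in *Bnip3* alone, as a pair of overlapping matches 107 and 108 bases before the start, which together spell a palindrome. TGACNNNGC, an antioxidant response motif, was found in 10.2% of all promoters and in the second *Fbxo40* window, 105 bases before that start. The lysosomal motif GTCACGTG, which contains ACGTG, stood in 1.85% of all promoters, and the heat shock motif GAANNTTC in 6.69%, and neither was found in the 9 windows. A match is a description of letters, and no factor was measured here. The *Trim63* and *Bnip3* windows are printed 5′ to 3′ on the strand of the gene, with the match in capitals, because they hold the FoxO and hypoxia matches. They lie at chr4:134314870-134315119, plus strand, and chr7:138909507-138909756, minus strand.
*Trim63*: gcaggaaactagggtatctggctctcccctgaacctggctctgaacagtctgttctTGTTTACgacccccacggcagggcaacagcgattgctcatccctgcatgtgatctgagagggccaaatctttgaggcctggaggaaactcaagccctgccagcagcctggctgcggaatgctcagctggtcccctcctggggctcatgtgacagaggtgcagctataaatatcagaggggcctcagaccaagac
*Bnip3*: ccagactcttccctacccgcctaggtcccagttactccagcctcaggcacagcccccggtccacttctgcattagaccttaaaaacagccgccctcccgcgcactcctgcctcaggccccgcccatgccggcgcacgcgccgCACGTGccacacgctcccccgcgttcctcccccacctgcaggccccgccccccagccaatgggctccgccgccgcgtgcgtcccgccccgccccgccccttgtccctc

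In the values below, each number is a normalised read count, that is, the reads of a gene divided by the size factor of the library and rounded. The libraries summed to 3133225 to 3253754 normalised counts. Estimated from the pattern of skipped whole numbers, they held 2.59 M to 3.62 M counted reads, with WT replicate 1 the shallowest. Each value of the 10 genes rests on an estimated 185 to 1940 reads, for which counting error alone gives coefficients of variation of 2.41% to 6.91%. The measured coefficients of variation within a genotype were 2.77% to 13.2%. The targeted RNA, listed as AC157017.2, was at 1, 0 and 1 in the KO hearts and at 690, 773 and 688 in the WT hearts, which fits the labels. *Trdn* itself was at 2489, 2381 and 2551 in KO and at 1541, 1541 and 1516 in WT, and differed by a log2 fold change of 0.69 ± 0.052 (SE, limma, adjusted p = 2.35e-07). Tests were made with limma on log2(value + 1) over the 13753 genes with a mean of at least 10, and p-values were adjusted over all of these by the Benjamini-Hochberg method.

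*Fbxo32* (GRCm38 chr15:58175879-58214892, minus strand), which encodes the substrate-binding F-box subunit of an SCF ubiquitin ligase, had normalised counts of 1688, 1512 and 1642 in the KO hearts and 1748, 1805 and 1619 in the WT hearts. WT replicate 3 lay below KO replicates 1 and 3, so the genotypes overlapped. The means were 1614 ± 91.3 in KO and 1724 ± 95.3 in WT (SD, n = 3 each), and the log2 fold change was -0.10 ± 0.059 (SE, adjusted p = 0.891 by limma). Its 95% interval corresponds to 0.859 to 1.020 times the WT level.

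*Trim63* (chr4:134315120-134329629, plus strand) encodes MuRF1, a RING-type ligase of the sarcomere's M-band. Its counts were 514, 429 and 504 in KO and 537, 534 and 449 in WT. KO replicate 2 and WT replicate 3 were the low hearts, and the other 4 lay between 504 and 537. The log2 fold change was -0.07 ± 0.082 (adjusted p = 0.948, limma). Per 100 *Fbxo32* reads the KO hearts had 29.8 ± 1.28 *Trim63* reads and the WT hearts 29.4 ± 1.51 (SD, n = 3 each), so the balance between the ligase genes best known from muscle wasting differed by less than the spread between hearts.

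*Trim54* and *Trim55* encode MuRF3 and MuRF2, relatives of MuRF1 that bind microtubules and titin. *Trim54* (chr5:31116712-31137630, plus strand) had counts of 327, 298 and 318 in KO and 314, 350 and 331 in WT, which overlap, and a log2 fold change of -0.08 ± 0.075 (adjusted p = 0.932, limma). This was -0.037 without WT replicate 2, -0.039 without KO replicate 2 and -0.12 without WT replicate 1. *Trim55* (chr3:19644474-19692421, plus strand) had counts of 560, 533 and 535 in KO and 631, 592 and 592 in WT. It was the only one of the 10 genes whose KO hearts all lay on one side of the WT hearts, which was the case for 1 of 10 genes here and for 9.07% of all genes tested. The means of *Trim55* were 543 ± 15.0 in KO and 605 ± 22.5 in WT (SD, n = 3 each), and the log2 fold change of -0.16 ± 0.062 corresponds to 0.897 times the WT mean, with a 95% interval of 0.820 to 0.982. Its unadjusted p was 0.0211 and its adjusted p 0.841 (limma), so it did not pass the test. An unadjusted p under 0.05 was reached by 5.74% of all genes, and by 2.8% of all genes in the lower direction. Over 14 alternative settings the log2 fold change of *Trim55* ran from -0.18 to -0.13 and its unadjusted p from 0.0189 to 0.0733.

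*Fbxo40* (chr16:36963460-36990467, minus strand) encodes a muscle F-box protein known to target the insulin receptor substrate IRS1. It had 1195, 1081 and 1148 normalised counts in KO and 1288, 1182 and 1147 in WT. WT replicate 3 was as low as KO replicate 3. The log2 fold change was -0.08 ± 0.061 (adjusted p = 0.908, limma). It was -0.030 without WT replicate 1, -0.040 without KO replicate 2, and -0.11 without KO replicate 1 or WT replicate 3. All 5 ligase genes were thus measured lower in KO by up to 10.3% of the WT mean (*Trim55*), and none of these differences passed the test.

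*Foxo1* (chr3:52268336-52353221, plus strand), the FoxO factor upstream of the ligase genes, was at 266, 286 and 267 in KO and at 236, 275 and 290 in WT. The WT hearts spanned the KO hearts on both sides. The means were 273 ± 11.3 and 267 ± 27.9 (SD, n = 3 each), a log2 fold change of 0.04 ± 0.086 (adjusted p = 0.979, limma), and the sign turned to -0.05 without WT replicate 1. A transcript level says nothing of the phosphorylation and nuclear location through which FoxO proteins are regulated, and neither was measured here.

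*Bag3* (chr7:128523616-128546981, plus strand) encodes the co-chaperone that links HSP70 and small heat shock proteins to autophagy at the Z-disc. Its counts were 663, 613 and 625 in KO and 768, 691 and 589 in WT. The WT hearts covered the widest relative range of the 10 genes, with a coefficient of variation of 13.2% against 4.12% in KO. The log2 fold change was -0.10 ± 0.078 (adjusted p = 0.910, limma). This value was set by single WT hearts: it was -0.01 without WT replicate 1 and -0.20 without WT replicate 3 (adjusted p = 0.419, the lowest of a range up to 0.999 over 14 alternatives).

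*Sqstm1* (chr11:50199366-50210827, minus strand) encodes p62, a receptor that carries ubiquitin-marked cargo to LC3. Counts were 716, 654 and 663 in KO and 766, 679 and 634 in WT, so that the highest and the lowest heart were both WT. The log2 fold change was -0.03 ± 0.070 (adjusted p = 0.980, limma) and became 0.05 without WT replicate 1.

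*Bnip3* (chr7:138890836-138909506, minus strand) encodes a receptor of the outer mitochondrial membrane for mitophagy. Its counts of 264, 234 and 223 in KO and 265, 235 and 247 in WT overlapped almost fully, and the log2 fold change was -0.05 ± 0.086 (adjusted p = 0.969, limma). It was -0.12 without KO replicate 1, -0.00086 without KO replicate 3 and -0.0072 without WT replicate 1. Of the 75-base stretches of its transcripts, 23.1% also occur in genes at other loci, among them processed copies, and the authors discarded reads with more than 1 location, so its level may be understated.

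*Gabarapl1* (chr6:129533160-129542346, plus strand) encodes a member of the LC3 and GABARAP family that anchors cargo receptors to the autophagosome. It had 228, 236 and 250 counts in KO and 233, 231 and 205 in WT, with a log2 fold change of 0.09 ± 0.084 (adjusted p = 0.922, limma), which was 0.036 without WT replicate 3 and 0.059 without KO replicate 3. KO replicate 1 lay below 2 of the WT hearts. Relative to the summed counts of 8 cardiomyocyte markers, however, it was at 2.00, 2.00 and 2.04 per 100 in KO and at 1.54, 1.76 and 1.77 per 100 in WT, without overlap, the markers themselves being measured lower in KO. The same ratio overlapped between the genotypes for the other 9 genes, and did not overlap for 14.2% of all tested genes. It was chosen with the values known and was not tested.

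**Figure D1:**
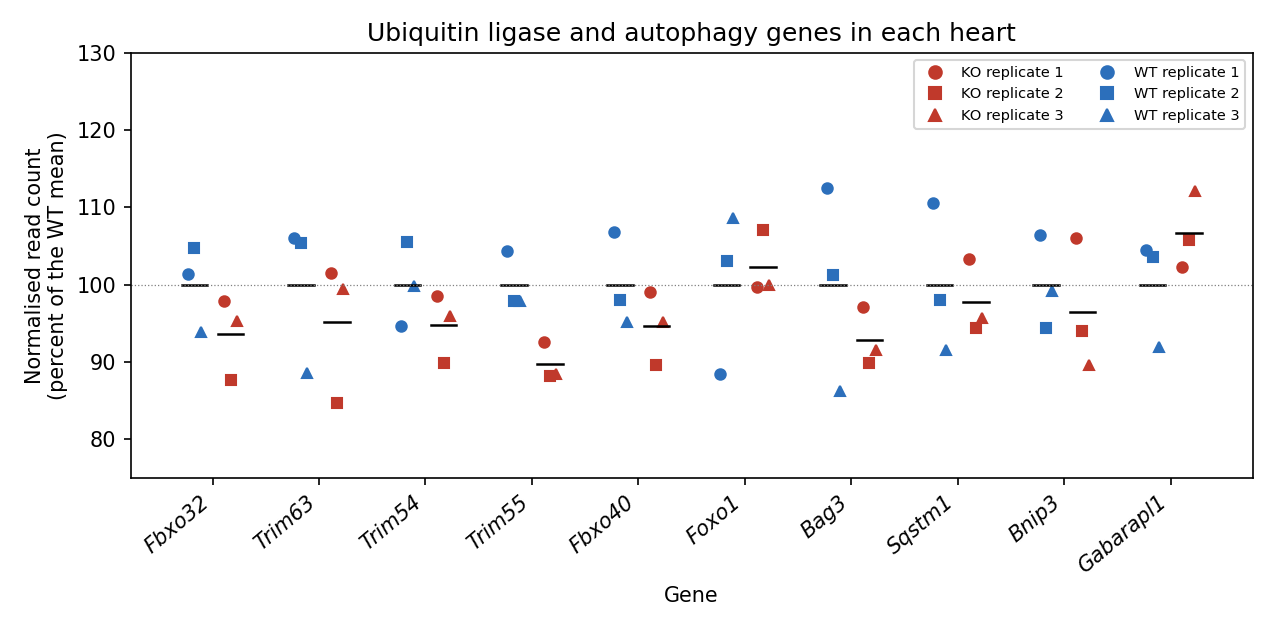
Normalised read count of each of the 10 genes in every heart, in percent of the mean of the 3 WT hearts (dotted line at 100), with KO hearts in red, WT hearts in blue, 1 symbol per replicate, and short lines at the genotype means. The points of both genotypes overlap for 9 genes, and for *Trim55* the 3 KO hearts lie below the 3 WT hearts.

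Read together, 0 of 10 genes passed an adjusted p of 0.05 by limma, where 0.0291% of all tested genes did (4 of 13753), and 1 of 10 had an unadjusted p under 0.05. The same count of 0 was found by limma-voom. The standard errors of the log2 fold changes were 0.059 to 0.086, smaller than the median of 0.12 over all genes. The largest decrease that the 95% intervals allow was to 0.820 times the WT level, for *Trim55*, and the largest increase was to 1.207 times, for *Gabarapl1*. A doubling of *Fbxo32* or *Trim63* lies far outside their intervals, which end at 1.020 and 1.072 times the WT level.

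**Figure D2:**
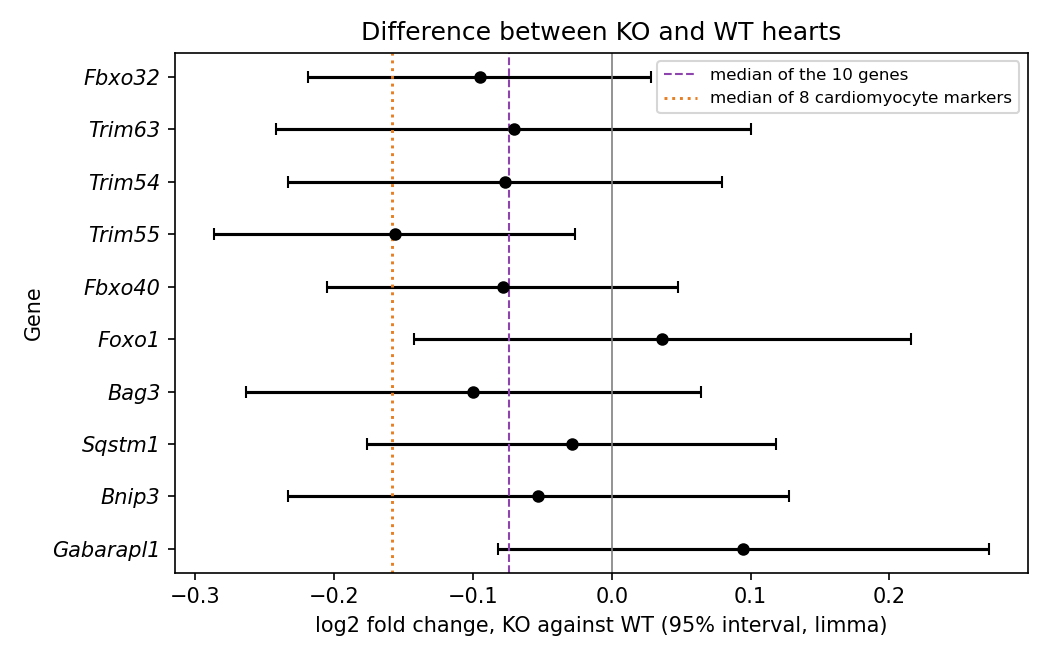
Log2 fold change of each gene, KO against WT, with its 95% interval from limma (n = 3 hearts per genotype). The intervals of 9 genes include 0, that of *Trim55* runs from -0.29 to -0.03 before any adjustment, and the vertical lines mark the median of the 10 genes (-0.07) and of 8 cardiomyocyte markers (-0.16).

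Over the 10 genes, of which 8 were lower in KO, the median log2 fold change was -0.07, while 49.4% of all tested genes were lower and their median was 0.00. Abundant genes as a whole were shifted in the same direction. Among the 1041 genes with a mean of 500 to 1000 the median log2 fold change was -0.03 and 64.6% were lower in KO, and the 3 of the 10 genes in that range had a median of -0.10. Of the 367 genes at 1000 to 2000, 81.7% were lower, with a median of -0.06, against -0.09 for *Fbxo32* and *Fbxo40*. Between 200 and 500, where the other 5 genes lie, the median was -0.00 over 2857 genes and -0.05 over the 5. Counted per exonic length, 7 of the 10 genes fall among the 855 genes at 128 to 512 normalised reads per kilobase, of which 84.7% were lower in KO with a median of -0.07, close to the -0.08 of the 7 genes.

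**Figure D3:**
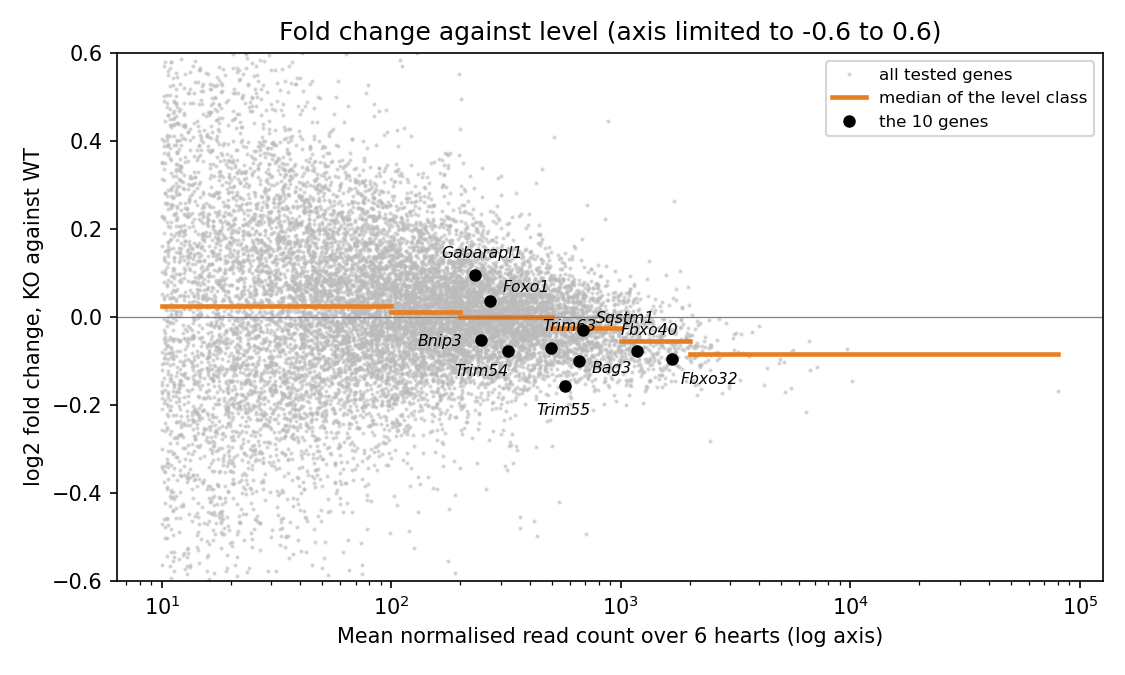
Log2 fold change, KO against WT, of every tested gene (grey) and of the 10 genes (black) against the mean normalised read count over 6 hearts on a log axis, with the median of each level class in orange. The class medians go from 0.02 at a mean of 10 to 100 down to -0.08 at 2000 and above, and 8 of the 10 genes lie below the median of their class, with *Foxo1* and *Gabarapl1* above it.

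Markers of the muscle cells themselves were measured lower as well. All 8 cardiomyocyte markers (*Myh6*, *Tnnt2*, *Tnni3*, *Actc1*, *Myl2*, *Myl3*, *Pln* and *Nkx2-5*) had KO means below the WT means (median log2 fold change -0.16), and 5 had an unadjusted p under 0.05, against 2.8% of all tested genes in that direction, while 0 passed the adjusted test by limma. Their summed counts were 11422 to 12233 in KO and 11576 to 15090 in WT, with WT replicate 1 the highest and the lowest WT sum within the KO range. The share of 2.8% was not matched for level. Of all genes with a mean of 1000 to 2000, 81.7% were lower in KO, and of those at 2000 or more, 97.7%. The 10 genes together gave 52.2 ± 3.52 counts per 100 marker counts in KO and 49.3 ± 3.94 in WT (SD, n = 3 each), and *Trim55* alone gave 4.60 ± 0.273 and 4.60 ± 0.473. In RNA of whole hearts, fewer cells of a type and less RNA per cell cannot be told apart, and the part of the markers in the lower values of the ligase genes was not tested. Skeletal muscle, where the ligase genes are also strongly expressed, had few reads from its own markers in these samples: *Myh1*, *Myh4*, *Myog* and *Myod1* were not analysed here, and *Myh2*, *Mylpf*, *Tnnt3*, *Tnni2* and *Actn3* summed to 14 to 20 counts in KO and 13 to 19 in WT. Summed markers of fibroblasts (3315 to 3732 in KO, 3493 to 3714 in WT) and endothelium (3547 to 4117 in KO, 3558 to 4058 in WT) overlapped between the genotypes, as did those of atrium, smooth muscle, leukocytes, blood and fat. The cardiomyocyte sums overlapped as well. By sign, 5 of 5 blood markers were lower in KO (median log2 fold change -0.22) and 5 of 5 endothelial markers were higher (median 0.03). In both lists 0 genes had an unadjusted p under 0.05.

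Levels of different genes can be compared only per length. On the scale of normalised reads per kilobase of exon, *Bag3* was the most abundant of the 10 (257 ± 25.4, SD over all 6 hearts), followed by *Fbxo32* (239 ± 14.8), *Trim54* (225 ± 12.2), *Trim55* (216 ± 14.4), *Fbxo40* (213 ± 12.4), *Sqstm1* (204 ± 14.4) and *Trim63* (174 ± 15.9). The ranges over the 6 hearts overlapped between each of these neighbours in the order. Within every heart, however, *Fbxo32* lay above *Trim54*, *Fbxo40* above *Sqstm1* and *Sqstm1* above *Trim63*, while the other neighbours among them changed order between hearts. *Trim63* lay above *Gabarapl1* (115 ± 7.28) in every heart, *Gabarapl1* and *Bnip3* (108 ± 7.57) overlapped, and *Foxo1* was far below at 31.2 ± 2.23. *Bag3* was higher than 98.6% of all tested genes on this scale, *Trim63* higher than 96.7%, *Bnip3* higher than 91.3% and *Foxo1* higher than 56.8%. The transcription factor gene was thus near the middle of all genes, while the 5 ligase genes were each above at least 96.7% of them.

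**Figure D4:**
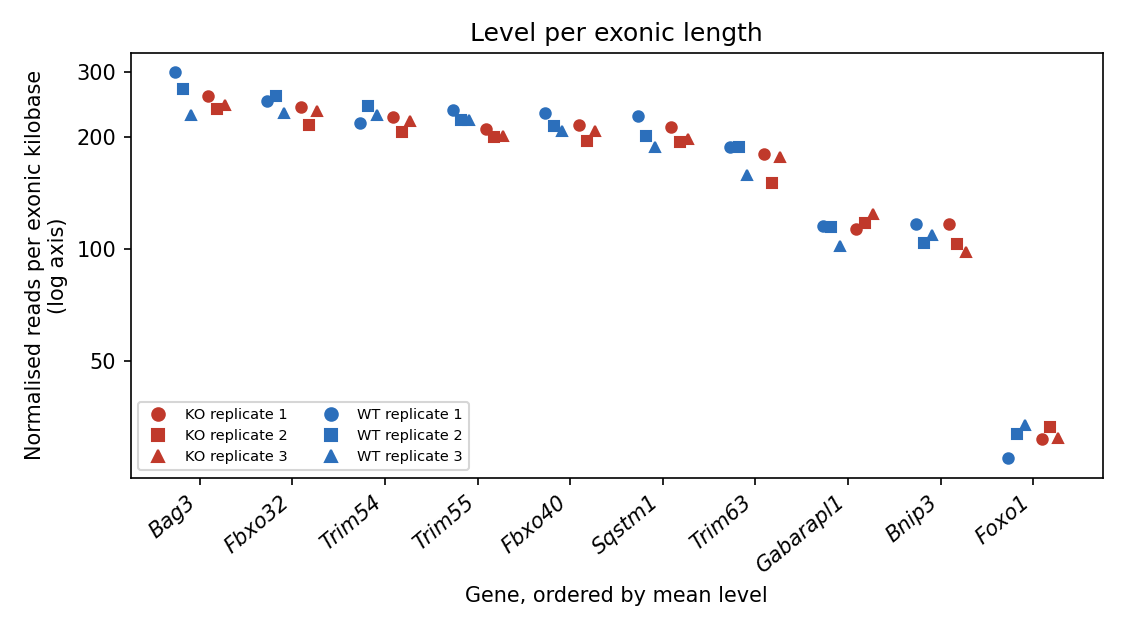
Normalised reads per kilobase of exon (log axis) for each gene in every heart, ordered by the mean over 6 hearts, with KO in red, WT in blue and 1 symbol per replicate. The first 7 genes lie between 151 and 300 reads per kilobase, *Gabarapl1* and *Bnip3* between 98.5 and 124, and *Foxo1* between 27.2 and 33.5.

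Within a genotype the hearts differed along shared lines. The correlations that follow are Pearson's r over 6 hearts after the mean of the genotype was subtracted from log2(value + 1). They are descriptions, since all genes share the same 6 libraries. *Fbxo32* and *Trim63* varied together (r = 0.97): in both, KO replicate 2 and WT replicate 3 were the lowest hearts of their genotype. *Bag3* and *Sqstm1* formed a second pair (r = 0.95), in which WT replicate 1 was the highest heart and WT replicate 3 the lowest of all 6, and *Trim55* and *Fbxo40* went with *Sqstm1* (r = 0.94 and 0.93). *Foxo1* ran against the others. Its r was negative with 8 of the 9 other genes, and reached -0.93 with *Sqstm1*, -0.93 with *Fbxo40* and -0.90 with *Bag3*. Of the 36 pairs without *Foxo1*, 6 were negative, with the lowest at -0.34. The median over all 45 pairs was 0.45, where the median over all pairs of the 7063 genes with a mean of at least 100 was 0.02. Pairs were not matched for level, and per exonic length *Foxo1* was far below the 9 other genes. WT replicate 1, the shallowest library, had the highest value for 6 of the 10 genes and the lowest for *Foxo1*. Without it, the r of *Fbxo32* with *Trim63* was 0.99, that of *Bag3* with *Sqstm1* was 0.88, that of *Foxo1* with *Sqstm1* was -0.76, and the median over the 45 pairs was 0.53. *Trim54* with *Foxo1* went from 0.27 to -0.98 when that library was left out, and *Trim54* with *Sqstm1* from -0.17 to 0.87. Of the 36 pairs without *Foxo1*, 2 were then negative, with the lowest at -0.76 (*Bnip3* with *Gabarapl1*).

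**Figure D5:**
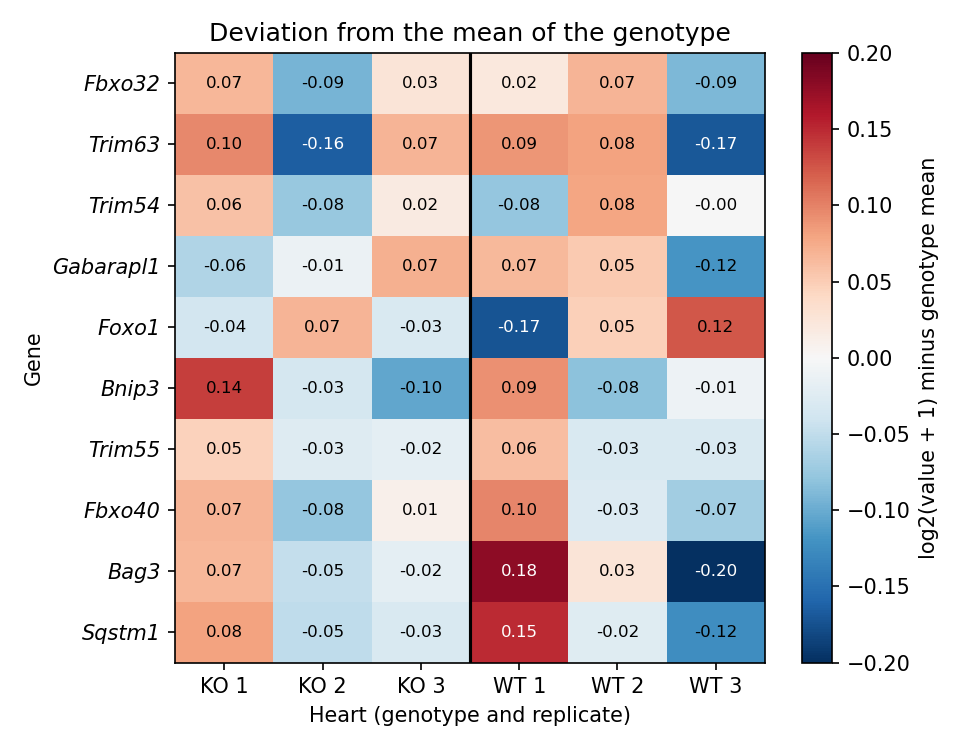
Deviation of each gene in each heart from the mean of its genotype, in log2(value + 1), with red above and blue below the mean and the value printed in each cell. *Fbxo32* and *Trim63* are low in KO 2 and WT 3, *Bag3* and *Sqstm1* are high in WT 1 and low in WT 3, and *Foxo1* is low in WT 1 and high in WT 3.

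Among genes with a mean of at least 100, those most like *Fbxo32* on this measure were *Nsmce4a* (r = 0.999), *Stard7* (r = 0.998) and *Cbr4* (r = 0.996), and those most like *Trim63* were *Eif4e* (r = 0.998), *Susd6* (r = 0.998) and *Kcnip2* (r = 0.996). They were picked as the highest of 7063 genes over only 6 hearts, and are given as descriptions.

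The wider machinery of both routes was read from lists of named genes. Of 43 further ubiquitin ligases and their partners, 14 were measured higher and 29 lower in KO (median log2 fold change -0.03), 0 passed the adjusted test by limma, and 3 had an unadjusted p under 0.05, all lower, against 2.8% of all tested genes in that direction. This count was 0 with KO replicate 2 or KO replicate 3 left out or with no mean-variance trend, 1 under total scaling or with WT replicate 2 left out, and 4 with WT replicate 3 left out. The balance of signs depended on the setting as well, with 22 of 43 lower under limma-voom and under total scaling and 19 of 43 lower without WT replicate 1. *Asb11*, a substrate receptor of a cullin ligase, was at 330, 278 and 274 in KO and at 366, 315 and 341 in WT (log2 fold change -0.21, adjusted p = 0.841), and KO replicate 1 lay among the WT hearts. *Asb2*, a related receptor that targets filamins in muscle, was at 837, 789 and 806 against 976, 870 and 838, with the highest KO heart 1 count below the lowest WT heart (-0.14, adjusted p = 0.851). *Fbxo30*, another F-box gene linked to muscle wasting, was at 373, 338 and 367 in KO and at 367, 376 and 373 in WT (-0.05, adjusted p = 0.960). Of 32 proteasome subunits, 8 were measured higher and 24 lower (median -0.05), and 0 reached an unadjusted p of 0.05. That balance moved with the scaling, to 19 of 32 lower and a median of -0.02 under limma-voom and total scaling, and with single hearts: without KO replicate 2, 13 of 32 were lower and the median was 0.01, and without WT replicate 3, 29 of 32 were lower.

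Of 32 genes of FoxO factors, their upstream signalling and their targets, 15 were measured higher and 17 lower (median -0.03), and 0 passed the adjusted test by limma. *Irs2*, an adaptor of the insulin receptor and itself a FoxO target, was the only one with an unadjusted p under 0.05, and 1 of 32 is a smaller share than the 5.74% of all tested genes. It was at 143, 112 and 94 in KO and at 148, 160 and 141 in WT, with KO replicate 1 above WT replicate 3 (log2 fold change -0.38 ± 0.13, adjusted p = 0.772). The count of 1 was not stable: it was 3 under limma-voom and with the replicate block, 2 under total scaling, without the mean-variance trend and without WT replicate 1, 6 with KO replicate 1 left out, 4 with WT replicate 3 left out and 0 with KO replicate 3 left out. *Foxo3* was at 855, 826 and 735 in KO and 804, 784 and 702 in WT (0.08, adjusted p = 0.922), and *Foxo4* at 265, 256 and 225 and at 245, 269 and 228 (0.01, adjusted p = 0.997). *Foxo6*, named after its values were seen, was low at 17, 18 and 22 in KO and 10, 16 and 15 in WT, without overlap (0.46, adjusted p = 0.879).

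Of 30 genes of autophagosome formation, 17 were measured higher and 13 lower, with a median of 0.01. Again 0 passed the adjusted test by limma, and 2 of 30 had an unadjusted p under 0.05, a share near the 5.74% of all tested genes. Both were higher. *Pik3c3* (VPS34), a lipid kinase that makes the phosphoinositide of the growing membrane, was at 208, 207 and 235 in KO and at 170, 196 and 193 in WT, and *Pik3r4* (VPS15), its partner, at 243, 267 and 276 and at 216, 234 and 240. No KO heart overlapped with a WT heart in either gene, as in 9.07% of all tested genes, and the log2 fold changes were 0.22 and 0.19 (adjusted p = 0.851 for both). The count of 2 fell to 0 when either WT replicate 1 or KO replicate 3 was left out, and to 1 when this was KO replicate 2 or WT replicate 2, or when no mean-variance trend was fitted. *Becn1*, which binds this kinase, was at 282, 297 and 295 in KO and 289, 325 and 300 in WT (-0.06, adjusted p = 0.949). It was named after its values were seen. The relatives of *Gabarapl1* were close to the WT level. *Map1lc3a* had a log2 fold change of -0.06, *Map1lc3b* of 0.09, *Gabarap* of -0.06 and *Gabarapl2* of 0.03, with adjusted p-values of 0.921 to 0.995, and *Gabarapl1* made up 45.9% ± 2.52 of the summed counts of the 3 GABARAP genes in KO hearts and 43.5% ± 0.626 in WT hearts (SD, n = 3 each).

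Of 17 autophagy and mitophagy receptor genes 16 were tested, *Calcoco2* being not analysed here. Of these, 6 were higher and 10 lower (median -0.02), and 0 had an unadjusted p under 0.05. Under limma-voom and total scaling 9 were higher and 7 lower, and without WT replicate 1 there were 8 of each. *Nbr1*, which works beside p62, was at 875, 869 and 885 in KO and at 934, 876 and 830 in WT (-0.00, adjusted p = 0.997). *Bnip3l* (NIX), the relative of *Bnip3*, was at 281, 273 and 293 in KO and 293, 270 and 291 in WT (-0.01, adjusted p = 0.995). Of 30 lysosomal genes and genes of the TFEB family, 14 were higher and 16 lower (median -0.01). This turned to 16 higher and 14 lower under limma-voom and total scaling, and became 10 higher and 20 lower without WT replicate 3. *Tfe3*, a relative of TFEB and like it a transcription factor of lysosomal genes, was at 91, 108 and 93 in KO and at 77, 74 and 89 in WT, without overlap (0.28, adjusted p = 0.851 by limma).

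The next list holds genes whose proteins bind BAG3 or depend on it. Of its 20 genes 18 were tested, 3 were measured higher and 15 lower (median -0.11), 4 had an unadjusted p under 0.05, all lower, which 2.8% of all tested genes had in that direction, and 0 passed the adjusted test by limma. *Hspb1* (HSP27), a small heat shock protein that BAG3 binds, was at 54, 51 and 45 in KO and at 69, 67 and 83 in WT, with no overlap and a log2 fold change of -0.53 ± 0.15 (adjusted p = 0.689). *Cryab*, the small heat shock protein that guards desmin, was at 422, 417 and 437 against 545, 517 and 425 (-0.21, adjusted p = 0.807), where WT replicate 3 lay among the KO hearts. *Hspa8*, the constitutive HSP70, was at 545, 564 and 576 against 704, 629 and 583, without overlap (-0.18, adjusted p = 0.822). *Hspb8*, the closest partner of BAG3, was at 677, 675 and 728 against 811, 692 and 695 (-0.08, adjusted p = 0.922). Without WT replicate 1, 15 of the 18 were lower, with a median of -0.07, and 1 had an unadjusted p under 0.05. The count of 4 was also 1 with no mean-variance trend, and it was 6 without WT replicate 3.

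Sarcomere proteins and other partners of the 3 MuRF ligases form a list that shares genes with the cardiomyocyte markers. Of its 19 genes, 2 were measured higher and 17 lower (median -0.12), 5 had an unadjusted p under 0.05, all lower, which 2.8% of all tested genes had in that direction, and 0 passed the adjusted test by limma. Of all genes with a mean of 2000 or more, 97.7% were lower, and of those at 1000 to 2000, 81.7%. *Myom1*, the gene of the M-band protein myomesin, was at 3165, 3067 and 3156 in KO and at 3756, 3488 and 3158 in WT (-0.14, adjusted p = 0.851). *Mybpc3*, the gene of cardiac myosin-binding protein C, was at 2781, 2752 and 2801 against 3494, 3131 and 2709 (-0.16, adjusted p = 0.851). *Ttn*, the gene of titin, was at 73738, 75179 and 76849 against 94044, 84042 and 76522 (-0.17, adjusted p = 0.851). In all 3 genes WT replicate 3 stood at the level of the KO hearts and WT replicate 1 was the highest. Without WT replicate 1 the median of the list was -0.05 and 0 genes had an unadjusted p under 0.05, and without WT replicate 3 it was -0.20 and 12 did. The count of 5 was also 0 without KO replicate 2 and with no mean-variance trend. It was 1 without WT replicate 2, and 2 without KO replicate 1 or KO replicate 3.

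Genes that follow the state of the animal at the time of sampling were read as well, since fasting lowers insulin signalling and releases FoxO factors. Of 6 tested fasting genes 6 were measured higher in KO (median log2 fold change 0.34), 4 with an unadjusted p under 0.05, which 5.74% of all tested genes had in either direction, and 0 with an adjusted p under 0.05 (limma), and 3 of the 4 are given here. *Pdk4*, a brake on glucose oxidation and a FoxO1 target, was at 1682, 1885 and 1998 in KO and at 1337, 1574 and 1742 in WT (0.26, adjusted p = 0.744), *Ucp3* had a log2 fold change of 0.41 (adjusted p = 0.772) and *Angptl4* of 0.80 (adjusted p = 0.807). KO and WT hearts overlapped in each of the 6 tested fasting genes. The 4 with an unadjusted p under 0.05 were not followed over the alternative settings. Of 10 clock genes 7 were higher, and 0 passed the adjusted test by limma. *Per3* (0.19), *Dbp* (0.21) and *Ciart* (0.63) had an unadjusted p under 0.05, against 5.74% of all tested genes. Of 9 glucocorticoid genes 5 were higher and 0 passed the adjusted test by limma. *Mt2* (0.53) was the only one of the 9 with an unadjusted p under 0.05. Of 7 tested immediate early genes 5 were higher and 0 passed the adjusted test by limma. *Fos* (44, 19 and 54 in KO, 10, 23 and 15 in WT) and *Jun* (log2 fold change 0.32) had an unadjusted p under 0.05. Among all tested genes, 5.74% did. The part of feeding, time of day or handling in the values of the 10 genes was not tested.

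Short transcripts that GENCODE M21 annotates inside introns of the 10 genes, on the same strand, are counted as genes of their own. These 4 were looked at after their values were seen and were fitted without the minimum level. *Gm44243*, inside an intron of *Gabarapl1* (chr6:129540221-129540912), was at 4, 5 and 5 in KO and at 15, 12 and 15 in WT, with no overlap, which is 1.96 ± 0.186 and 6.32 ± 1.07 per 100 *Gabarapl1* counts (SD, n = 3 each). Its log2 fold change was -1.40 ± 0.36 (adjusted p = 0.529 over 21776 genes by limma), so it did not pass the test, and KO values of this size are close to the 3 reads taken here as the floor. *BC002189*, inside an intron of *Trim55*, was at 71, 76 and 66 in KO and at 84, 78 and 106 in WT (-0.32, adjusted p = 0.916). Its values did not overlap either, as in 9.07% of all tested genes. *2610306O10Rik* inside *Bag3* had a log2 fold change of -0.09 and *Gm38034* inside *Foxo1* of 0.00. Genes on the opposite strand that share exonic bases with the 10 genes had values of 0 to 10 in every heart where the table lists them (*Gm15943*, *Gm15469*, *Mrnip*, *Gm45507* and *1700101I11Rik*).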

How the data were processed

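Total RNA of whole hearts (3 *Trdn-as* KO, 3 WT) was sequenced by the authors as stranded 75-base single-end libraries. Per the paper's methods and the submitters' processing notes, reads were trimmed (Trimmomatic 0.39), aligned to GRCm38 (STAR 2.6.1d), cleared of duplicates (Picard 2.21.1) and of multimapping, ribosomal and mitochondrial reads, and counted per gene on the correct strand over exons (featureCounts 1.6.5). The deposited value is a score: the authors divided counts by DESeq2 (1.18.1) size factors and rounded to whole numbers, so no count model was fitted. Here, limma 3.58.1 in R 4.3.3 (lmFit, eBayes with trend, 4 residual and 15.4 prior degrees of freedom) was applied to log2(value + 1) of the 13753 genes with a mean of at least 10, and p-values were adjusted by Benjamini-Hochberg (threshold 0.05). The procedure was tested on simulated data. Exonic lengths came from GENCODE M21. The members and lists were chosen with earlier results of these data known. Named were all members, set paralogs, and up to 3 genes per list with the smallest p under 0.05 (all such genes of the sampling-state lists), except some that are not reported here. The labels do not say how the animals were chosen. The p-values set each difference against the spread between these samples, which limma moderated with that of the other tested genes.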

Additional observations from a re-analysis of the deposited data

How the results depend on the processing

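For the 10 genes the count past the adjusted threshold was 0 under all 14 alternative fits: limma-voom, other scalings, filters and pseudocount, no mean-variance trend, the replicate block and each heart left out. The signs of 7 genes were kept in all 14. *Trim63* was at 0.011 without KO replicate 2 (range over left-out hearts -0.16 to 0.011), *Foxo1* at -0.049 (-0.049 to 0.099) and *Sqstm1* at 0.045 (-0.091 to 0.045) without WT replicate 1; the cause was not tested. *Trim55* had an unadjusted p of 0.0733 without the trend, and of 0.0557, 0.0659 and 0.0718 without KO replicate 2, KO replicate 3 and WT replicate 1. With 1 heart left out, 0 to 3 of the 10 genes had an unadjusted p under 0.05 (3 without WT replicate 3), and their median log2 fold change lay between -0.12 (KO replicate 1 left out) and -0.03 (WT replicate 1 left out). Total scaling and voom moved the median of all genes to 0.02 and 0.03 and that of the 10 genes to -0.05, with 8 lower. Of the pathway genes 0 passed, except 1 with 1 heart left out (0 to 1): *Myh7*, at -0.96 (adjusted p = 0.00436) without KO replicate 1, the highest heart at 1043. Over all genes, 4 passed (3 higher in KO, 1 lower). This became 2, with 0 lower, when at least 10 was required in every heart, 1, with 0 higher, without the trend, and 2, with 1 higher, at an adjusted p of 0.01. With 1 heart left out the count was 2 to 32 (1 to 17 higher, 1 to 15 lower; 32 without KO replicate 1). Same-numbered KO and WT hearts did not deviate together (correlations 0.05, -0.07 and -0.03). With 3 hearts per genotype this cannot show whether they were paired, and the labels do not say. With the replicate block 0 of the 10 genes passed and 800 genes, against 790, had an unadjusted p under 0.05. Depth limits the precision: counting error alone, at 2.41% to 6.91%, was as large as the measured spread within a genotype for several of the 10 genes, such as *Foxo1* in KO (4.13% measured, 5.86% from counting) and *Trim54* in WT (5.43% and 5.68%).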
